A study of Mus musculus with 6 samples.

Results

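The transient outward and related voltage-gated (Kv) potassium channels of the mouse heart were described here through 9 genes: Kcnip2, Kcnd2, Kcnd3, Kcnv2, Kcna4, Kcna5, Kcna1, Kcnab1 and Dpp6. They were chosen by name as pore-forming Kv4 and Kv1 subunits, a silent subunit and accessory subunits, with their differences between the groups of hearts already known from these arrays, so the differences of these 9 genes are given as a description and carry no test. The arrays measured them with 23 probe sets that carry 1 of these symbols alone, each a group of probes merged into 1 signal, out of 45037 probe sets other than controls. All 9 genes had at least 1 probe set. The array annotation named 18193 genes in all.

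Each array held RNA from 1 heart apex, taken from males 6 to 7 weeks old. The 3 hearts with Cre were Fog2flox/delta animals with alpha MHC Cre (aMHC_Cre 1 to 3), and the 3 hearts without Cre were Fog2flox/delta animals with no Cre (no_Cre 1 to 3). All 6 animals therefore carried 1 floxed and 1 deleted allele of Fog2 (official symbol Zfpm2), which encodes a cofactor of GATA transcription factors. The hearts without Cre were not wild type, the alpha MHC promoter drives Cre in cardiomyocytes, and there was no group with Cre on an unfloxed background, so an effect of Cre itself and one of the deletion cannot be told apart. The question behind the comparison is what loss of Fog2 from cardiomyocytes does to cardiac transcripts.

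The transient outward current is the early potassium current that starts repolarisation of the cardiac action potential. In mouse ventricle its fast part is carried by Kv4 pores, encoded by Kcnd2 and Kcnd3, which need the calcium-binding subunit KChIP2, the product of Kcnip2, to reach the membrane in number, and a slowly recovering part is carried by Kv1.4, the product of Kcna4. Kv1.5, the product of Kcna5, carries an ultrarapid delayed rectifier. Values below are deposited log2 signals, and differences are the mean with Cre minus the mean without Cre.

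The 6 arrays had medians of 5.72 to 5.81 on the log2 scale. Across tested probe sets, arrays correlated at 0.980 to 0.987 within groups and at 0.964 to 0.973 between groups. Zfpm2 had 2 probe sets that went opposite ways. One read 5.46, 5.61 and 5.65 with Cre and 6.34, 6.40 and 6.65 without Cre. The other read 10.71, 10.48 and 10.50 with Cre and 8.86, 8.83 and 8.95 without Cre. No source used here says which part of the gene either one measures, so they do not check the deletion. The 3' minus 5' signal of Actb, which can reflect RNA quality, was 0.25 to 0.29 with Cre and 0.30 to 0.41 without Cre, and that of Gapdh was -0.07 to -0.04 with Cre and -0.14 to -0.08 without Cre. Both measures separated the groups in opposite directions, and their part in the results below was not tested.

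With Cre, the transcripts of the fast transient outward channel were lower: the accessory subunit gene Kcnip2 most, and the pore genes Kcnd2 and Kcnd3 by less than 1 on the log2 scale at their brightest probe sets. The silent subunit gene Kcnv2 was also lower. Kcna4 read higher at a dim level, Kcna5 and Kcna1 overlapped between the groups at their brightest probe sets, and Kcnab1 and Dpp6 stayed dim in all hearts. In tissue RNA, fewer cells of a type and less RNA per cell cannot be told apart. Of the 23 probe sets, 12 passed the filter on dim probe sets (mean over the 6 hearts of at least 5.16), which covered 6 of the 9 genes. In the limma fit across all tested probe sets, 7 of the 12 were called lower (adjusted p under 0.05) and 0 higher, and the 7 belong to Kcnip2, Kcnd2, Kcnd3 and Kcnv2. Over all 27022 tested probe sets 1.79% were called lower and 3.43% higher. Because the genes were chosen on this contrast, the count describes them and supports nothing further. Without a filter on dim probe sets, 1 of the 23 was called, Kcnip2 probe set 1425870_a_at, among 275 called in all.

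**Figure D1:**
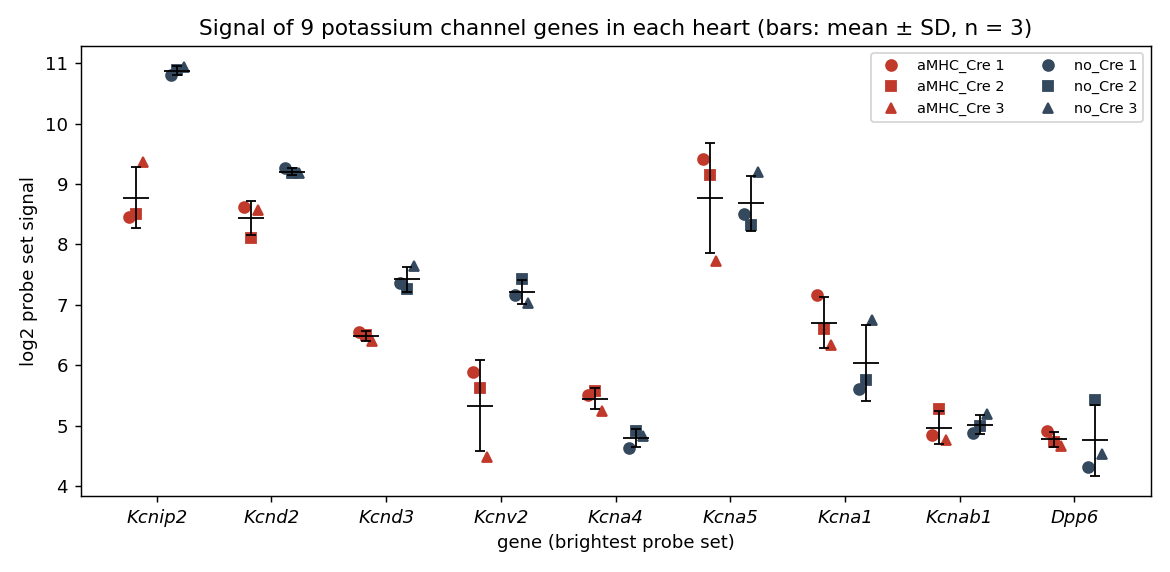
Log2 signal (vertical axis) of the brightest probe set of each of the 9 genes in every heart, hearts with Cre in red to the left and hearts without Cre in dark blue to the right, with the mean and SD of 3 hearts as black bars. The groups of Kcnip2, Kcnd2, Kcnd3 and Kcnv2 do not overlap, with the hearts with Cre lower, while Kcna5 runs from 7.73 to 9.42 with Cre and from 8.33 to 9.20 without Cre.

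Kcnip2 lies on chromosome 19 (45792346 to 45816422 in GRCm38.p6). Its brightest probe set, 1436275_at, read 8.46, 8.51 and 9.36 with Cre and 10.80, 10.89 and 10.94 without Cre. The hearts with Cre were all lower, and aMHC_Cre 3 lay closest to the hearts without Cre. The difference was -2.10 ± 0.22 (SE from the fit, n = 3 against 3), or 4.28-fold lower. The spread among the hearts with Cre was wider, at 8.77 ± 0.51 (SD, n = 3), against 10.87 ± 0.07 without Cre. A second probe set, 1425870_a_at, read 6.28, 6.15 and 6.77 with Cre and 8.61, 8.65 and 8.93 without Cre. Its difference was -2.33 ± 0.18 (SE), and the order of the hearts with Cre again had aMHC_Cre 3 at the top. The third, 1421783_a_at, was dim and differed by -0.23 ± 0.16 (SE), from 5.07 to 5.31 with Cre and from 5.16 to 5.72 without Cre, so its groups overlapped. Of the 3 probe sets of Kcnip2, 2 therefore differed by over 2 and 1 by much less, and the mean over them differed by -1.55.

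Kcnd2 (chromosome 6, 21215346 to 21729805) encodes Kv4.2, the main Kv4 pore of mouse ventricle. Its brightest probe set, 1422835_at, read 8.62, 8.11 and 8.57 with Cre and 9.26, 9.18 and 9.17 without Cre, a difference of -0.77 ± 0.15 (SE). The SD of the hearts without Cre was 0.05, and all hearts with Cre were lower, aMHC_Cre 2 by most. Another probe set, 1450773_at, read 7.66, 7.38 and 7.78 with Cre and 8.22, 8.30 and 8.21 without Cre. The third, 1422834_at, read 6.93, 6.47 and 7.16 with Cre and 7.62, 7.65 and 7.62 without Cre. Their differences were -0.64 ± 0.13 and -0.78 ± 0.17 (SE), so the 3 tested probe sets of Kcnd2 agreed in direction and size, and aMHC_Cre 2 was the lowest heart in each. The fourth, 1447764_at, was below the filter, at -0.40, -9.27 and -9.86 with Cre and 1.25, 2.83 and 0.06 without Cre. A difference of such negative log2 values has no stable size: it was -7.89 as deposited and -0.25 with 16 added to the unlogged signal.

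Kcnd3 (chromosome 3, 105451890 to 105674002) encodes Kv4.3, the other Kv4 pore. Its brightest probe set, 1435720_at, read 6.56, 6.49 and 6.40 with Cre and 7.36, 7.26 and 7.65 without Cre. These groups stood well apart, with a difference of -0.94 ± 0.13 (SE) and an SD of 0.08 among the hearts with Cre. With 64 added to the unlogged signal the difference was -0.62. Probe set 1426070_a_at did not show this, with 5.39, 5.54 and 6.08 with Cre and 5.27, 5.86 and 5.81 without Cre. Its difference was 0.02 ± 0.22 (SE), and the mean over the 2 tested probe sets differed by -0.46. The other 2 probe sets of Kcnd3 were below the filter. Of these, 1442555_at read 2.41, 4.12 and 3.20 with Cre and 4.56, 4.42 and 4.68 without Cre. The last, 1447513_at, read 2.89, 2.83 and -4.85 with Cre and 4.45, 3.71 and 3.43 without Cre. In 3 of the 4 probe sets of Kcnd3 every heart with Cre was thus below every heart without Cre, 2 of them at signals where small changes of the unlogged value give large log2 differences.

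**Figure D2:**
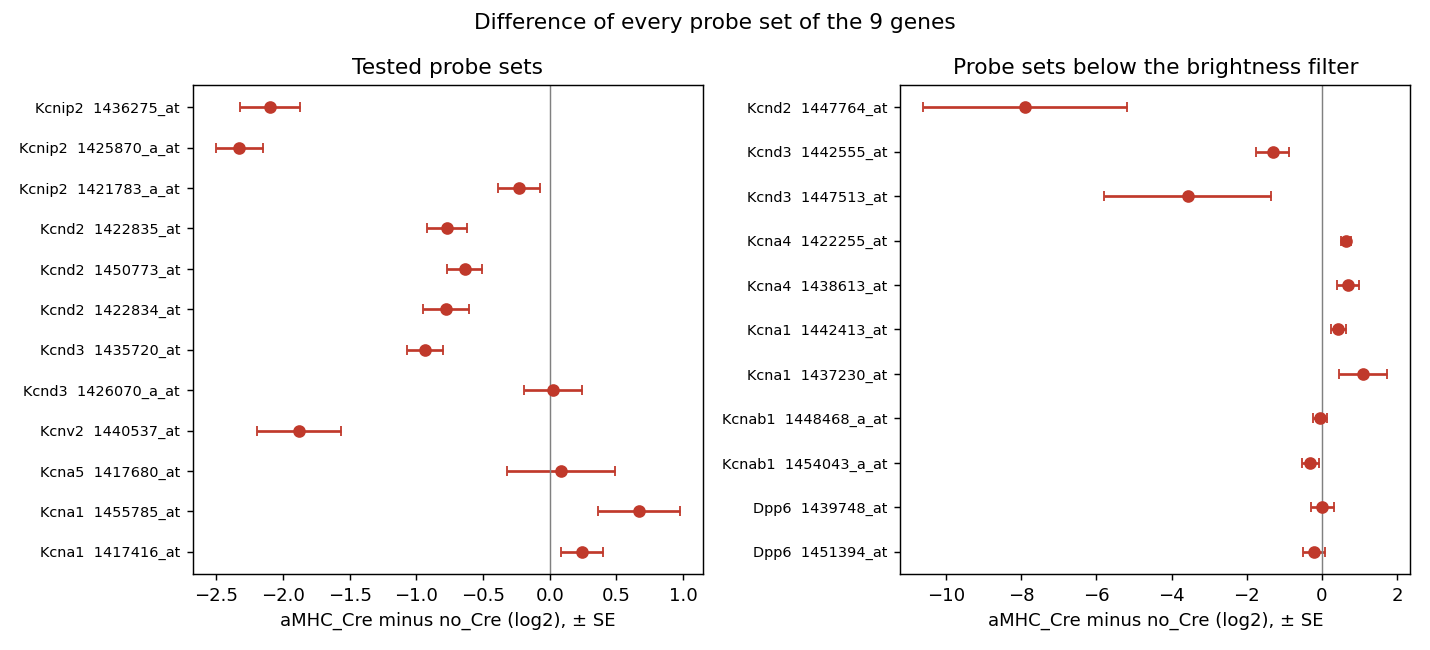
Difference between hearts with Cre and hearts without Cre (horizontal axis, log2) for each of the 23 probe sets, with bars for the SE: 12 tested probe sets on the left, and 11 below the brightness filter on the right, on a wider axis and with the SE of a fit without a filter. The 3 tested probe sets of Kcnd2 lie between -0.78 and -0.64, while those of Kcnip2 and of Kcnd3 each include 1 close to 0.

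RefSeq promoter windows of GRCm38.p6, from 250 bases before to 50 bases after an annotated start, were at hand for 7 of the 9 genes, with 11 windows in all. Those of Kcnip2, Kcnd2 and Kcnd3 are shown because these genes encode the fast transient outward channel and read lower together. They lie at chr19:45816014-45816313 on the minus strand, chr6:21215096-21215395 on the plus strand and chr3:105451640-105451939 on the plus strand. The Kcnip2 window lies inside the gene span given above, so it flanks an inner start and not the outer one at 45816422. Capitals mark CACCC on either strand, letters bound by Krüppel-like factors.
Kcnip2: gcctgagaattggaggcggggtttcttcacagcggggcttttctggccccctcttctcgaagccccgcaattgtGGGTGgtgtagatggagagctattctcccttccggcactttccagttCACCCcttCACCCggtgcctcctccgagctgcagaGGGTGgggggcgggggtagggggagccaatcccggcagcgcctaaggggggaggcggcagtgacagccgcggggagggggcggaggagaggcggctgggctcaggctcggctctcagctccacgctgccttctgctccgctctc
Kcnd2: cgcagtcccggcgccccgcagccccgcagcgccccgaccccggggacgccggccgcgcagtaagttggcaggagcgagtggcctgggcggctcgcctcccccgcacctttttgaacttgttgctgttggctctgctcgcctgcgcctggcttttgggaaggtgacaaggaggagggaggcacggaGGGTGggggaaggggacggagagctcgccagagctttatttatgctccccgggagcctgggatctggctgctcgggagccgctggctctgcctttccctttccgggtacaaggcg
Kcnd3: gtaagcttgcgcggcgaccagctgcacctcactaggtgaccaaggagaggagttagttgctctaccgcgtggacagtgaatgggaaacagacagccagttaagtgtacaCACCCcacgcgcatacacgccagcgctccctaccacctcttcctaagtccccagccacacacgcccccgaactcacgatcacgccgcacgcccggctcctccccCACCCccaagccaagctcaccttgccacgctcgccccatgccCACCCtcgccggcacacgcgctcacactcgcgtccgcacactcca

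The windows were rich in G and C, at 67.0% for Kcnip2, 68.7% for Kcnd2 and 64% for Kcnd3, against a median of 52.7% over all 32851 windows of the table. CACCC stood 4 times in the Kcnip2 window, 1 time in that of Kcnd2 and 3 times in that of Kcnd3. It was present in 7 of the 11 windows of the 9 genes and in 57.5% of all windows. The GATA motif, searched as AGATAA or AGATAG or TGATAA or TGATAG on both strands, was in none of the 3 windows and in 1 of the 11, a window of Kcnab1, against 29.8% of all windows. A match describes letters only, and a window without one says nothing about binding elsewhere.

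Kcnv2 (chromosome 19, 27322061 to 27337179) encodes Kv8.2, a silent subunit that forms no channel alone and joins other Kv pores. Its single probe set, 1440537_at, read 5.90, 5.62 and 4.48 with Cre and 7.17, 7.43 and 7.04 without Cre. All hearts with Cre were lower, and here aMHC_Cre 3 was the furthest from the hearts without Cre, the reverse of its place for Kcnip2. The difference was -1.88 ± 0.32 (SE), and -1.45 when aMHC_Cre 3 was left out. It shrank to -1.52 with 16 and to -0.998 with 64 added to the unlogged signal. No other probe set was present to compare it with.

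The Kv1 pore genes did not share this direction. Kcna4 (chromosome 2, 107290589 to 107326804) read 5.50, 5.58 and 5.25 with Cre and 4.64, 4.92 and 4.83 without Cre at probe set 1422255_at. Every heart with Cre was higher, but the mean lay just under the filter, so the probe set was not tested. Its difference of 0.65 was 0.44 with 16 and 0.23 with 64 added to the unlogged signal. The other probe set of Kcna4, 1438613_at, read 5.16, 4.39 and 4.84 with Cre and 3.74, 4.01 and 4.55 without Cre, and its groups overlapped through no_Cre 3 and aMHC_Cre 2.

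Kcna5 and Kcna1 are neighbours on chromosome 6, at 126532551 to 126535555 and 126636463 to 126645801, with Kcna6 the next protein-coding gene after Kcna1. Kcna5 had 1 probe set, 1417680_at, which read 9.42, 9.15 and 7.73 with Cre and 8.51, 8.33 and 9.20 without Cre. The groups overlapped, and the lowest of all 6 hearts was aMHC_Cre 3. The difference of 0.09 ± 0.40 (SE) became 0.60 without aMHC_Cre 3 and -0.24 without aMHC_Cre 1, so its sign rests on single hearts. Kcna1, which encodes Kv1.1, a channel best known from neurons, had 4 probe sets with differences of 0.24 to 1.10, all upward. Its brightest, 1455785_at, read 7.17, 6.60 and 6.34 with Cre and 5.61, 5.75 and 6.75 without Cre, a difference of 0.67 ± 0.31 (SE). The group without Cre was split, with no_Cre 3 inside the range of the hearts with Cre, and the difference was 1.02 without that heart, 0.43 without aMHC_Cre 1 and 0.45 without no_Cre 1. In another probe set of Kcna1, 1437230_at, no_Cre 3 also stood out, at 5.46 against 2.96 and 4.08 in no_Cre 1 and no_Cre 2, while the hearts with Cre read 5.64, 5.18 and 4.98. The high values of no_Cre 3 for both Kcna5 and Kcna1 were not matched by Kcna6, their neighbour, at 7.12, 7.24 and 6.76 with Cre and 7.32, 7.07 and 7.18 without Cre.

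Kcnab1 encodes a cytoplasmic Kv beta subunit that speeds inactivation of Kv1 channels, and Dpp6 encodes a membrane partner of Kv4 channels. The brighter probe set of Kcnab1, 1448468_a_at, read 4.85, 5.29 and 4.77 with Cre and 4.87, 4.99 and 5.19 without Cre. The brighter one of Dpp6, 1439748_at, read 4.92, 4.73 and 4.67 with Cre and 4.32, 5.43 and 4.54 without Cre. All 4 probe sets of these 2 genes were below the filter, and their groups overlapped. Their differences ran from -0.30 to 0.01. For Dpp6 the sign changed when single hearts were left out (-0.21 without no_Cre 1 and 0.35 without no_Cre 2 at 1439748_at). For Kcnab1 it also changed, from -0.05 with all hearts to 0.05 without aMHC_Cre 3 at 1448468_a_at.

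Over all 23 probe sets, every heart with Cre was below every heart without Cre in 10, above in 2, and the groups overlapped in 11. Across all 45037 probe sets the corresponding shares were 10.0% below and 9.44% above. The 10 belong to Kcnip2, Kcnd2, Kcnd3 and Kcnv2, and the 2 to Kcna4 and Kcna1 (1442413_at). That Kcna1 probe set was below the filter, and its groups barely parted, at 4.9473 in aMHC_Cre 1 against 4.9425 in no_Cre 1. These shares also describe genes that were chosen on the same contrast.

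The hearts with Cre did not keep 1 order across the genes. At the brightest probe set of each gene, aMHC_Cre 3 was the lowest of the 3 hearts with Cre for 7 of the 9 genes, against 28.5% of all tested genes. The 7 include Kcna4, Kcnab1 and Dpp6, which were below the filter and so not among the tested genes. The exceptions were Kcnip2, where it was the highest, and Kcnd2, where it was close to aMHC_Cre 1. Of 6 fibroblast markers, the same heart was the highest of the hearts with Cre for 4 (Col1a1, Col1a2, Lum and Postn), the lowest for Pdgfra, at 9.61 against 9.80 and 9.70, and between the other 2 for Dcn. The part of this in the values of Kcnv2 and Kcna5 was not tested.

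**Figure D3:**
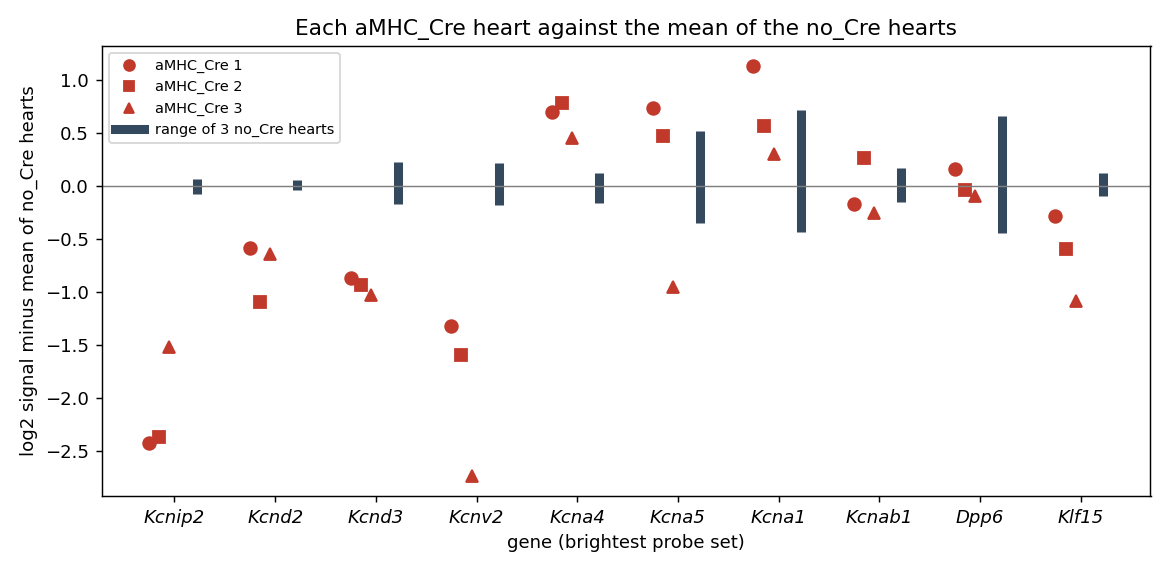
Log2 signal of each heart with Cre minus the mean of the hearts without Cre (vertical axis) for the brightest probe set of the 9 genes and of Klf15, with dark blue bars for the range of the 3 hearts without Cre. The triangle of aMHC_Cre 3 is the highest of the red points for Kcnip2 (9.36 before the mean is taken off) and the lowest for Kcnv2 (4.48), Kcna5 (7.73) and Klf15 (8.64).

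The other Kv genes are those left after the described genes were taken out with their values known, so a low count of calls among them is partly set by that choice. Of 32 listed pore, silent and accessory subunit genes, 26 were named in the annotation and 11 passed the filter. In the limma fit 0 of these 11 were called in either direction, and 1 had an unadjusted p under 0.05, while over all 13062 tested genes 2.04% were called lower and 4.20% higher, shares that leave a count of 0 of 11 unremarkable. Their median difference was -0.02, with a range from -0.20 to 0.34, beside a median of -0.01 over all tested genes. Among the 6 tested genes of the described group, for comparison, differences ran from -2.10 to 0.67.

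The brightest of these was Kcna7, which encodes a Kv1 pore found in heart and skeletal muscle. It read 10.86, 11.02 and 10.95 with Cre and 11.13, 11.19 and 11.12 without Cre, slightly lower in each heart with Cre, but the difference of -0.20 ± 0.11 (SE) did not pass (limma adjusted p 0.40). Kcng2, a silent subunit gene first described in heart, was at 9.78, 9.81 and 9.82 with Cre and 9.56, 9.34 and 9.48 without Cre. That difference of 0.34 ± 0.11 (SE) did not pass either (limma adjusted p 0.14), but it passed with 64 added to the unlogged signal (0.045). Kcnd1, the third Kv4 pore gene, differed by -0.02 ± 0.19 (SE, limma adjusted p 0.98), and Kcnip1, a relative of Kcnip2 whose product also binds Kv4 channels, by -0.14 ± 0.15 (adjusted p 0.70). Kcna6 differed by -0.15 ± 0.15 (adjusted p 0.68). A p that misses the threshold does not show that these genes were equal between the groups.

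**Figure D4:**
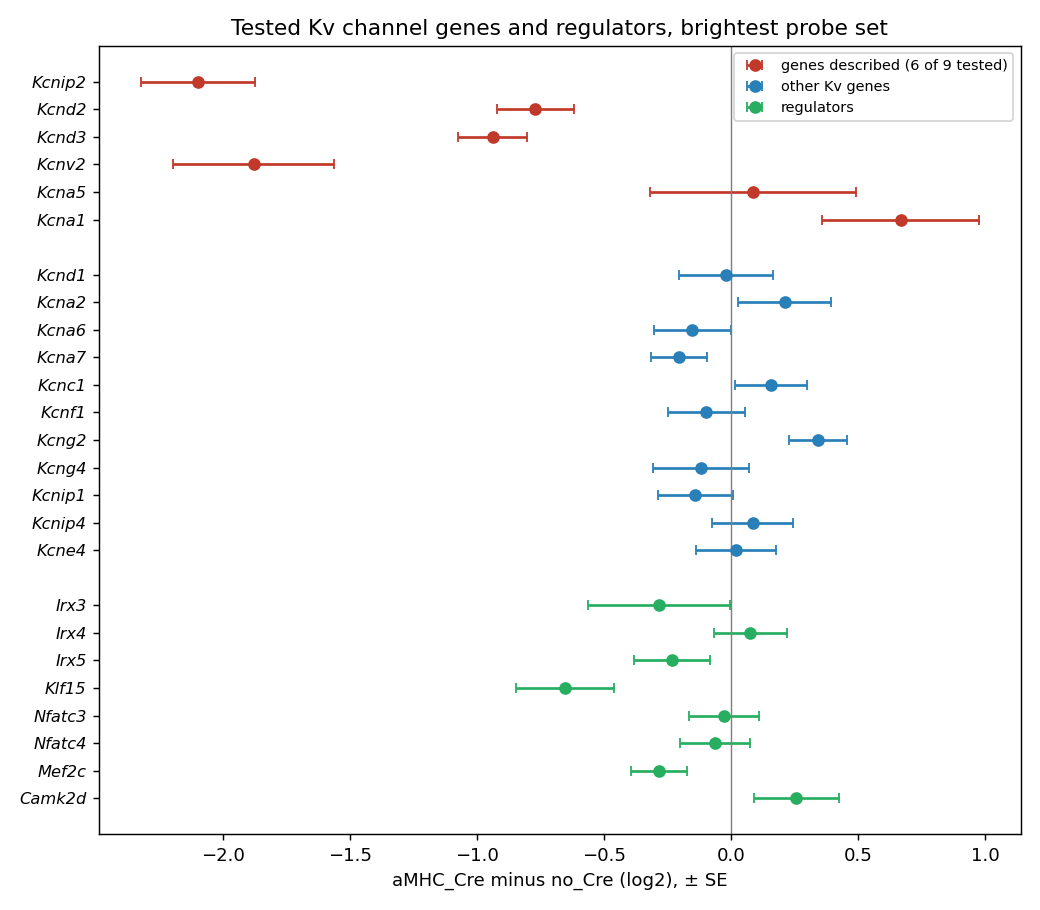
Difference between hearts with Cre and hearts without Cre (horizontal axis, log2), with bars for the SE, at the brightest probe set of the tested genes: 6 described genes in red, 11 other Kv genes in blue and 8 regulators in green. The blue points lie between -0.20 and 0.34, and the green ones between -0.65 for Klf15 and 0.26 for Camk2d.

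Of 8 transcription factors and signalling genes known in mouse to act on cardiac potassium channel expression or remodelling, 0 were called in the limma fit, and 2 had an unadjusted p under 0.05. The share of all tested genes at that unadjusted level is not given. Such counts, here and for the other lists, therefore do not show an excess. Klf15, a Krüppel-like factor that drives Kcnip2 in mouse heart, was at 9.44, 9.13 and 8.64 with Cre and 9.63, 9.85 and 9.69 without Cre. Every heart with Cre was lower, but the difference of -0.65 ± 0.19 (SE) did not pass (limma adjusted p 0.097, range 0.046 to 0.34 over the other settings). It passed with 64 added (0.046) and without aMHC_Cre 1 (0.046). At the brightest Kcnip2 probe set the order of the hearts with Cre was the reverse of that for Klf15. There aMHC_Cre 3 was lowest for Klf15 and highest for Kcnip2. At Kcnip2 probe set 1425870_a_at aMHC_Cre 3 was again highest, but aMHC_Cre 2 was lowest, while Klf15 was highest in aMHC_Cre 1. Whether these orders bear on Klf15 as a driver of Kcnip2 was not tested. Irx5, a repressor of Kcnd2 that sets its gradient across the ventricular wall in mouse, differed by -0.23 ± 0.15 (adjusted p 0.49). Mef2c, a muscle transcription factor, differed by -0.28 ± 0.11 (adjusted p 0.21) and Camk2d, the main calcium/calmodulin kinase of the heart, by 0.26 ± 0.17 (0.49). The rest, Irx3, Irx4, Nfatc3 and Nfatc4, lay between -0.28 and 0.08.

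By profile over the 6 hearts, each probe set centred on its own mean, the 5 tested genes nearest to Kcnip2 were Mylk4, a myosin light chain kinase of the heart, A530016L24Rik, the matrix protein gene Egflam, Smco1 and Tbc1d10c. Their root mean square distances from Kcnip2 were 0.27 for Mylk4 and 0.38 to 0.42 for the other 4, on the log2 scale. Mylk4 read 7.83, 7.43 and 8.72 with Cre and 10.00, 9.53 and 10.31 without Cre, and so shared both the low level of the hearts with Cre and the place of aMHC_Cre 3 above the other 2. Of the 9 genes, Kcnd3 came next to Kcnip2 at rank 62, with Kcnd2 at 90 and Kcnv2 at 123 among tested genes. The nearest genes were picked by these values, so their likeness is a description.

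Markers of other cell types were set beside these values. Of 7 cardiomyocyte markers, such as Myh6 and Tnnt2, 0 were called by limma and 0 had an unadjusted p under 0.05, with differences from -0.11 to 0.12. Their summed signal was 16.30 to 16.36 with Cre and 16.33 to 16.39 without Cre on the log2 scale. Myh6, Tnnt2, Pln, Actc1 and Mb read near the array maxima in both groups, where a change in RNA may move the signal little. The sum weighs these bright markers most, so it does not show that cardiomyocyte content was equal between the groups. Ryr2, the calcium release channel gene, differed by 0.12 ± 0.11 (SE, limma adjusted p 0.67). Of the atrial markers 2 of 3 tested rose, Nppa by 2.03 ± 0.17 (SE) and Myl7, which read 10.72, 11.42 and 10.92 with Cre and 4.34, 3.39 and 3.42 without Cre. Nppa with Cre, at 13.68 to 13.72, was also near the array maxima. Myl7 was below the level of the filter without Cre and passed through the hearts with Cre, so the size of its difference is uncertain. The atrial list had a summed signal of 13.92 to 13.98 with Cre and 11.61 to 12.19 without Cre, while Myl4 differed by -0.02 and Sln stayed at 2.57 to 4.01 in all hearts.

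All 6 fibroblast markers had a higher mean with Cre, 4 of them called by limma and 5 at an unadjusted p under 0.05. Among those called, Col1a2 rose by 1.28 ± 0.15 (SE) and Postn by 1.36 ± 0.19. The summed signal of the 6 was 13.82 to 13.99 with Cre and 13.15 to 13.42 without Cre. Of 5 endothelial markers, only Vwf was called by limma, higher by 1.12 ± 0.17, and the sums, Vwf included, were 11.90 to 12.02 with Cre and 11.58 to 11.82 without Cre. Pecam1, Cdh5, Kdr and Tek differed by 0.03 to 0.20, were not called and overlapped between the groups. Nerve and Schwann cell markers bear on Kcna1, which those cells also express. Of 5 tested, 0 were called by limma and 1 had an unadjusted p under 0.05 (S100b, a difference of 0.40 ± 0.13), with sums of 8.85 to 9.08 with Cre and 8.82 to 9.03 without Cre. Of the others, 0 of 2 conduction markers (0 at unadjusted p under 0.05), 0 of 5 smooth muscle markers (1) and 0 of 5 macrophage markers (1) were called, and their summed signals overlapped between the groups. Gja5, a conduction and arterial gene, was at or below 2.84 in all hearts. The part of the atrial and fibroblast differences, and of that of Vwf, in the potassium channel values was not tested.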

How the data were processed

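Per the submitters' processing notes, the deposited log2 signals were made with PLIER, which merges the probes of a probe set. How it was set up, and whether arrays were normalized against each other, no source used here states. The log base was read from the range of the values. The number of arrays limits precision, and the titles call the hearts biological replicates.

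Gene names came from the platform annotation. Of the probe sets, 932 had several symbols, 9160 had no symbol and 34945 had a single one, which alone named a gene; 34741 of the last matched RefSeq by Entrez number. After removal of 64 controls, the dimmest 40% by mean (18015) were dropped, and limma 3.58.1 under R 4.3.3 tested the other 27022 (two-sided eBayes, no covariates, Benjamini-Hochberg over all of them, threshold 0.05). A gene was represented by its brightest probe set. The procedure was tested on simulated data. Summed marker signals are log2 of the sum of unlogged signals.

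The 9 genes and all lists were chosen with earlier results of these data known. All probe sets of the 9 genes were named in the text or in a figure. Of other Kv genes and regulators, any that passed and the 3 brightest that did not were named. Up to 2 markers per list and the 5 nearest profiles were named too. Kcnd1, Kcna6, Irx5, Mef2c, Camk2d and further single genes were added after their values were seen. No array medians differed by over 0.1, so no normalization was added.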

Additional observations from a re-analysis of the deposited data

How the results depend on the processing

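Of 282 differences of single probe sets of the 9 genes recomputed under settings that can move them, 267 moved by less than the spread between replicates, 15 by more and 0 turned a called direction. The 15 came from adding 1, 16 or 64 to the unlogged signal or from averaging probe sets. Leaving out 1 of 3 hearts shifts a group mean by less than the SD of that group. Those settings could therefore hardly count as moved, and their part of the 267 says little about stability. Kcna5, for example, counted as not moved at 0.60 and at -0.24, against 0.09 with all hearts. The filters, the variance model and the replicate block change only the test, not a difference. Over all 27022 tested probe sets 1412 were called, and 815 genes. Without a filter these counts were 275 and 152, at adjusted p under 0.01 they were 529 and 321, and with the replicate block 909 and 536. Leaving out 1 heart gave 584 (without aMHC_Cre 2) to 1112 called probe sets and 350 to 619 genes, with 902 without aMHC_Cre 1, 881 without aMHC_Cre 3 and 935 without no_Cre 1. Of the probe sets of the 9 genes, 7 were called, 1 without a filter, 3 at adjusted p under 0.01 (2 of Kcnip2 and 1 of Kcnd3), and 4 to 7 when 1 heart was left out. The low of 4, reached without no_Cre 1, no_Cre 3 or aMHC_Cre 2, lacked all probe sets of Kcnd2, while both of Kcnip2, that of Kcnd3 and that of Kcnv2 kept their call. Without no_Cre 2, Kcna4 (1422255_at) passed the filter through the hearts with Cre and was called higher. Its hearts without Cre, at 4.64 to 4.92, were all under the main filter level of 5.16, so this call supports nothing further. Kcnv2 fell below the filter when the lowest 60% were left out. Of the other Kv genes 1, Kcng2, was called with 64 added, and 0 under the other settings. Deviations of hearts with the same replicate number correlated at -0.06, 0.21 and -0.19, so the numbers do not pair the hearts, and the replicate block called 5 of the 9 genes' probe sets. Pairs with unlike numbers ran from -0.20 to 0.27 (aMHC_Cre 1 with no_Cre 3), with 0.19 for aMHC_Cre 3 with no_Cre 1. Whether any hearts shared a batch was not tested. Trend and robust variances gave 756 lower calls against 484.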
